A study of Homo sapiens with 5 samples.

Results

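The genes examined encode the proteasome without its immune-induced catalytic subunits: the subunits of the 20S core and the 19S cap, the chaperones that assemble them and the activators that dock on the core. They were chosen by symbol, as every probe whose current gene symbol began with PSMA, PSMB, PSMC, PSMD, PSME or PSMG and a number, leaving out PSMB8, PSMB9, PSMB10 and pseudogenes. Of the 47317 probes on the array, 69 met that wording. Of these, 62 probes belonged to 40 proteasome genes, and the other 7 belonged to 4 genes whose symbols go on after the number and which encode no subunit. PSMA7, PSMC5, PSMD7 and PSMD13 had no named probe and were not analysed here. All values come from H9 cells, a widely used line of human embryonic stem cells, kept in E6 medium that was changed every day up to harvest. Undifferentiated H9 cells (week 0) and cells at weeks 2, 4, 6 and 8 of differentiation toward corneal epithelial-like cells were sampled, with 1 bead array per week and no replicate, so every difference is one between 2 arrays of 1 cell line and carries no error estimate.

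The proteasome degrades proteins tagged with ubiquitin. Its 20S core is a stack of rings, with alpha subunits in the outer rings and beta subunits, some of them catalytic, in the inner rings. The 19S cap binds the ubiquitin chain, removes it and threads the protein into the core by means of a ring of ATPases. Other caps, the PA28 and PA200 activators, open the core without ATP. Pluripotent stem cells are known for high proteasome activity, and PSMD11 has been described as a subunit that limits the amount of assembled 26S proteasome in human embryonic stem cells.

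Markers set the frame for these values. POU5F1, NANOG, LIN28A, DNMT3B, ZFP42 and SALL4 were above background in week 0 cells, while DPPA4 and UTF1 were below background on all 5 arrays. All 6 measured pluripotency genes were at least 2-fold lower at week 8, and their list's summed signal was 1405.6 at week 8, against 35732.5 at week 0. Summed signals here are bead signals without background correction or normalization, and they include genes below background. Of the 8 pluripotency genes summed, 3 were above background at week 8. PAX6 and CDH1 were above background from week 2, KRT5 and KRT14 from week 4 and KRT15 from week 6. In contrast, ALDH3A1 and the keratins that define corneal epithelium, KRT3 and KRT12, were below background on all 5 arrays. Summed signal at week 8, against week 0, was 11207.4 against 1073.7 for 8 corneal and surface epithelium markers and 74151.1 against 4053.4 for 7 stromal markers. It was 8626.3 against 2471.0 for 6 neuronal markers and 43646.0 against 2381.7 for 7 lens and pigment markers. All 15 cell division genes were at least 2-fold lower at week 8, with a summed signal of 12644.4 at week 8 and 57894.1 at week 0. These lists moved over the same weeks as the proteasome genes, and their part in the results below was not tested. In a bulk sample, fewer cells of a type and less RNA per cell cannot be told apart.

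Most proteasome genes were highest in the undifferentiated cells. Values are normalized log2 signals of 1 probe per gene, the probe with the highest mean, and a gene is said to have risen or fallen where its signals on a pair of arrays were 2-fold or more apart (1 in log2) and the brighter one was above background. Of the 40 genes, 38 were above background on all 5 arrays. The exceptions, PSMA8 (a testis subunit) and PSMB11 (a thymus subunit), were below background on every array. Week 0 held the highest of the 5 values for 34 of the 38 genes, and the lowest value fell at week 6 for 15 genes and at week 8 for 16. These counts were not made over all named genes, so they have no share to be set against.

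By week 8, 14 of the 38 genes (36.8%) had fallen and none had risen. Over all 12346 named genes measured at either week, 15.4% had fallen and 16.8% had risen. The median difference of the proteasome genes at week 8 was -0.71 on the log2 scale, a 1.63-fold lower signal, against -0.05 for all named genes. Of the 38 differences 34 were below 0, against 6463 of the 12346 over all named genes. The largest decreases were those of PSMG4 (4.00-fold), PSMC4 (3.59-fold) and PSME3 (3.13-fold). The 4 genes with a difference above 0 were PSME1 (0.79), PSMD9 (0.50), PSMD5 (0.23) and PSMD10 (0.16). With every array brought to the same 75th percentile instead of the same quantiles, 25 of the 38 genes had fallen, against 20.5% of all named genes, the proteasome median was -1.16 against -0.21 for all named genes, and PSMD10 turned to -0.27. Relative to the median of all genes, the proteasome median was therefore -0.66 with quantile normalization and -0.95 with the other scaling.

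**Figure D1:**
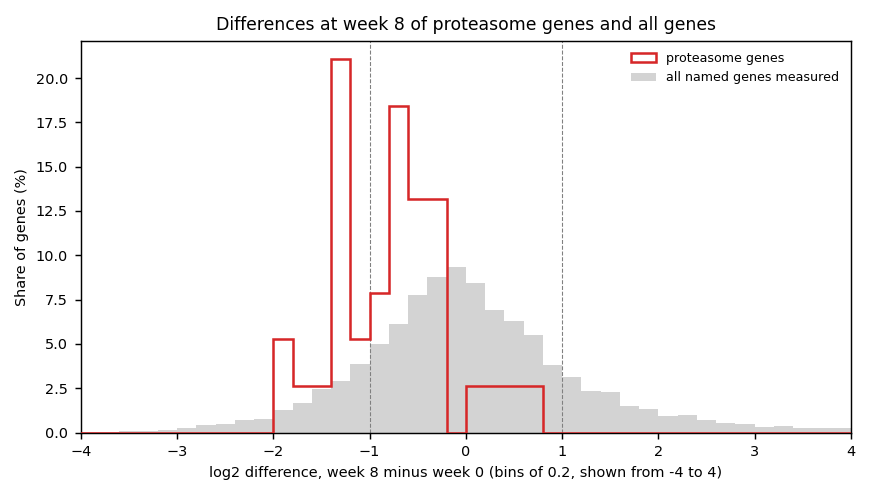
Share of genes (%) by log2 difference, week 8 minus week 0, in bins of 0.2, for the 38 proteasome genes (red outline) and all 12346 named genes measured (grey). Dashed lines mark a 2-fold difference. The proteasome genes lie between -2.00 and 0.79, with 34 of 38 below 0, against 6463 of all 12346 genes.

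The decrease came in parts of the time course. The median difference from week 0 over weeks 2, 4, 6 and 8 was -0.41, -0.52, -0.78 and -0.71. From week 0 to week 2 the signal was lower for 35 of the 38 genes, and for 6049 of the 11699 named genes measured. Only 6 members (15.8%) had fallen and 1 had risen, against 9.28% and 10.7% of all genes. At week 4 again 6 had fallen and 1 had risen, against 11.5% and 14.0% of all genes. At week 6, 14 had fallen and none had risen, against 14.1% and 15.8% of all genes. Of the 14 genes down at week 6, 13 were also down at week 8, and 4 genes (PSMD3, PSMD11, PSMD12 and PSMG4) were down at all 4 later weeks. All of these calls share the 1 week 0 array and so are not independent. The same overlaps were not counted over all genes. With the 75th percentile scaling, 8, 17 and 31 members had fallen at weeks 2, 4 and 6, against 11.6%, 16.9% and 20.4% of all genes. Without background correction the counts at weeks 2, 4, 6 and 8 were 2, 2, 7 and 11 (5.26%, 5.26%, 18.4% and 28.9%), against 4.1%, 5.09%, 6.91% and 8.05% of all genes. In the authors' processed values they were 2, 3, 10 and 12 (5.26%, 7.89%, 26.3% and 31.6%), against 3.9%, 4.98%, 6.7% and 7.65%. Under these 2 settings the share of members past 2-fold at weeks 2 and 4 was thus near that of all genes, or little above it. With only 2 members down at week 2 there, not all 4 of the genes named above were down at every later week.

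Between neighbouring weeks the steps were smaller than 2-fold for nearly all members. From week 2 to week 4 the median was -0.05 and 1 gene, PSMD5, fell (2.63% of members) and none rose, against 5.42% and 7.26% of all genes. From week 4 to week 6 the median was -0.33, with 31 of 38 differences below 0, against 5985 of 11730 over all genes. None was of 2-fold, where 4.26% of all genes fell and 6.23% rose. From week 6 to week 8 the median was 0.00, with 19 differences below 0 and 19 above it. Over all genes 6224 were below 0 and 5714 above it. None of the members differed by 2-fold, where 1.08% of all genes fell and 1.92% rose.

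**Figure D2:**
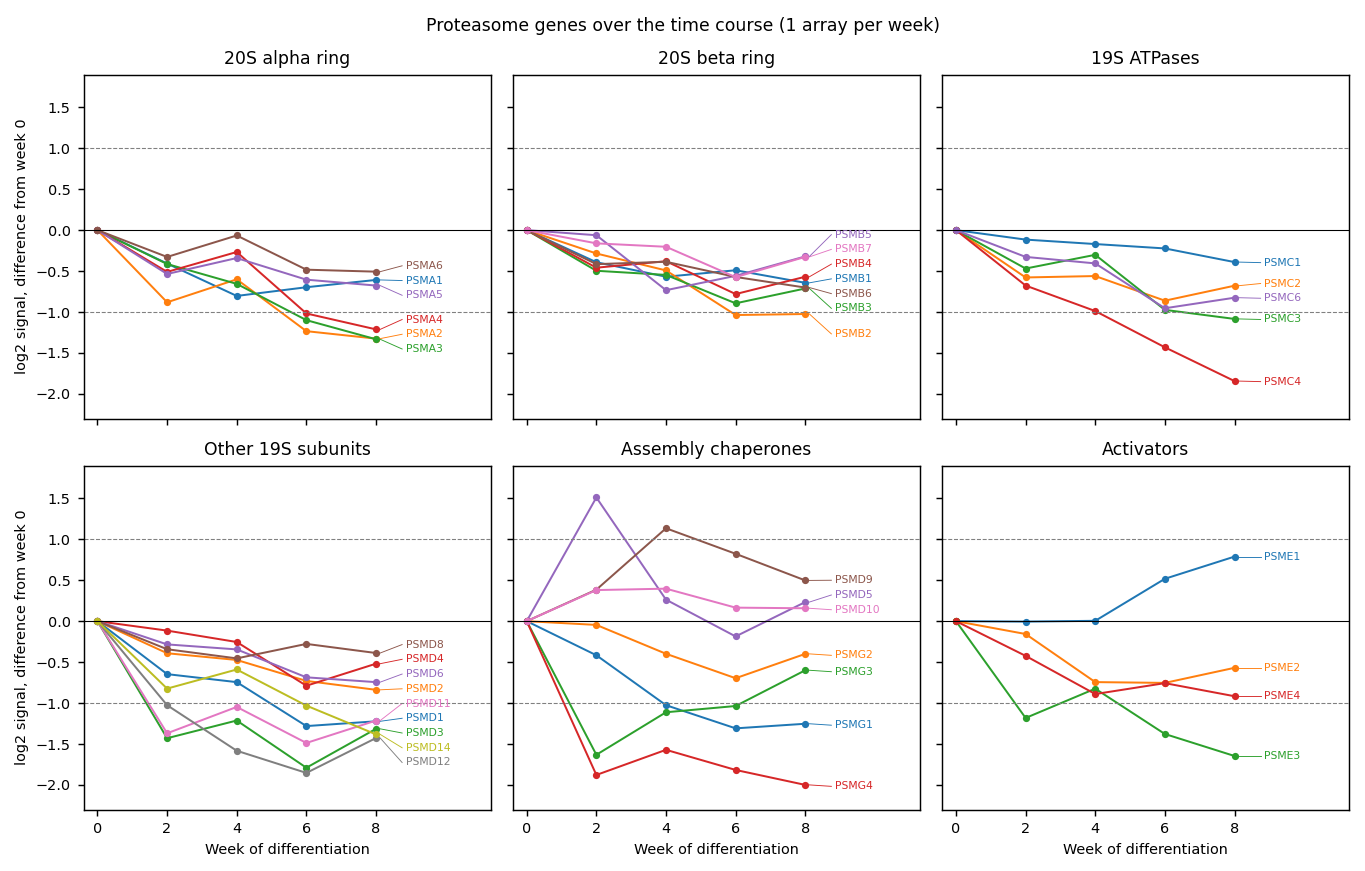
Log2 signal of each of the 38 proteasome genes as the difference from week 0 (vertical axis) at weeks 0, 2, 4, 6 and 8 (horizontal axis), 1 line per gene and 1 panel per role, with dashed lines at a 2-fold difference. Lines of the core and cap lie below 0 at every later week, and the assembly chaperones spread from -2.00 to 0.50 at week 8.

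Because the members moved largely together, their promoters were compared. The RefSeq table (GRCh38.p14) held 45 windows of 300 bases, from 250 bases before to 50 after a start, for 38 of the 44 genes expected by symbol. Searched on both strands, TGACNNNGC, the core of the antioxidant response element bound by NRF1 and NRF2, was in 31.1% of these windows and in 13.3% of all 35116 windows in the table. CCAAT, the box bound by NF-Y, was in 42.2% of member windows and 34.6% of all windows. CCGGAAG, an ETS family site, was in 31.1% and 10.3%, and the site of nuclear respiratory factor 1 in 15.6% and 5.78%, with windows of 1 gene counted apart although some overlap. No member window held a place where different motifs overlapped. TGACNNNGC occurred in 6 of the 14 genes that had fallen at week 8 and in 7 of the 19 others with a window and a measured level. For CCAAT these counts were 9 of 14 and 7 of 19, for CCGGAAG 3 of 14 and 8 of 19, and for the nuclear respiratory factor 1 site 1 of 14 and 3 of 19, none of them tested. Matches are a description of letters and not of binding.

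Windows are printed for PSMG4, the gene with the largest decrease, for PSMD3, PSMD11, PSMD12 and PSMD14, the lid genes that fell, and for PSMD9 and PSME1, the pair with the largest differences above 0. Capitals mark the motifs above, and each window reads 5′ to 3′ along the gene's own strand. Their places are chr6:3258697-3258996 (plus strand) for PSMG4, chr17:39980557-39980856 (plus) for PSMD3, chr17:32444260-32444559 (plus) for PSMD11, chr17:67366528-67366827 (minus) for PSMD12, chr2:161308175-161308474 (plus) for PSMD14, chr12:121888540-121888839 (plus) for PSMD9 and chr14:24135944-24136243 (plus) for PSME1.
PSMG4: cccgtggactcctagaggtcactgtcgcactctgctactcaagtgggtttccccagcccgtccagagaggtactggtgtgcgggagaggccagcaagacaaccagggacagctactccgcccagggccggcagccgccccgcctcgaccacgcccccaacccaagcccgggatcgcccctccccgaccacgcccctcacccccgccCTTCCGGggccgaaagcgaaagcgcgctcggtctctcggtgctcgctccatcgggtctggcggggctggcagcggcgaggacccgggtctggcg
PSMD3: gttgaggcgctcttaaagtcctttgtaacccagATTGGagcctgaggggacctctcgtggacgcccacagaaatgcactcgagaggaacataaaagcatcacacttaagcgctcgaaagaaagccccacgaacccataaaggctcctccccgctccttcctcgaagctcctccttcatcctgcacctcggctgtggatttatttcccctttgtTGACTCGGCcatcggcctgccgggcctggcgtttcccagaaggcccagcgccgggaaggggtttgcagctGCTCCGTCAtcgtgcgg
PSMD11: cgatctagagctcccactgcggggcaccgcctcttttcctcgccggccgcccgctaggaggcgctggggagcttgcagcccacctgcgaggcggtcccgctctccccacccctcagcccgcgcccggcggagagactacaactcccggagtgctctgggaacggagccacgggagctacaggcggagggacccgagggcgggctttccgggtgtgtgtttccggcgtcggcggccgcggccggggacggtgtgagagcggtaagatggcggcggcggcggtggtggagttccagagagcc
PSMD12: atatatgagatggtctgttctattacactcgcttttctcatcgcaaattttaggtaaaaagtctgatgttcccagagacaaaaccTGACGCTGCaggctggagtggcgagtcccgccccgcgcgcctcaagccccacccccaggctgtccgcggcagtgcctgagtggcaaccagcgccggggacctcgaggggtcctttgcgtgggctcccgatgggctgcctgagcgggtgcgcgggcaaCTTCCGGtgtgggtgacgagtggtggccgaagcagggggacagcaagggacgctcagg
PSMD14: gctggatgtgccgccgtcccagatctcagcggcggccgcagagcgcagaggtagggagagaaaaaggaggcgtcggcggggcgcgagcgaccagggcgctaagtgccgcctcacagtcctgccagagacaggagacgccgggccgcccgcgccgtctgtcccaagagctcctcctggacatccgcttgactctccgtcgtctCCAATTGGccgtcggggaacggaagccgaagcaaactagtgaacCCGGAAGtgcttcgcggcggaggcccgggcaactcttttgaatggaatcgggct
PSMD9: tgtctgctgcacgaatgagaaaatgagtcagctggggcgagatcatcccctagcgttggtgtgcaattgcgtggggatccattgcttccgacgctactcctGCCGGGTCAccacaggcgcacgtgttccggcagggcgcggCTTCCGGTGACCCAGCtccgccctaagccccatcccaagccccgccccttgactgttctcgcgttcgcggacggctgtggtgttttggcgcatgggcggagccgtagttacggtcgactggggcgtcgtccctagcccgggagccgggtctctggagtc
PSME1: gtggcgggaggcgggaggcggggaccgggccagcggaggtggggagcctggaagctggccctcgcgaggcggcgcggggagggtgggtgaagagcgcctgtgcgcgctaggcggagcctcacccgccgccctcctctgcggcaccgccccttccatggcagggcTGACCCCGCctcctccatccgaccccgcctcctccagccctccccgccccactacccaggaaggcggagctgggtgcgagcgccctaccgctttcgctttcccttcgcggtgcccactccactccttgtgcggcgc
Genes that fell and genes that did not shared motifs. TGACNNNGC was found in the windows of PSMD3 and PSMD12, which fell, and in those of PSMD9 and PSME1, which did not, the window of PSMG4 held CCGGAAG alone, and that of PSMD11 held none of the motifs.

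The alpha ring, which forms the outer gate of the core, was lower throughout. All 6 measured alpha genes were below week 0 at every later week. At week 8 their median was -0.94, with 3 of the 6 fallen, against 15.4% of all named genes. PSMA3 had log2 signals of 11.19, 10.77, 10.53, 10.09 and 9.85 at weeks 0, 2, 4, 6 and 8, a decrease at each harvest that came to 2.52-fold at week 8. PSMA2 had 9.43, 8.55, 8.83, 8.20 and 8.10 over the same weeks, a difference of -1.32 at week 8 that was mostly present by week 2. PSMA4 had 12.81, 12.30, 12.54, 11.79 and 11.60, so on this probe most of its decrease came after week 4, and it reached -1.21. On these probes week 0 was the highest array for each of the 3 genes and week 8 the lowest. PSMA5 (-0.68), PSMA1 (-0.61) and PSMA6 (-0.51) differed by less than 2-fold at week 8. A further probe of PSMA4 differed by -0.63, -0.99, -1.05 and -0.96 at weeks 2, 4, 6 and 8. That probe just missed 2-fold at week 8, had most of its decrease by week 4 and was lowest at week 6.

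The beta ring, which holds the catalytic sites, had the smallest median decrease of the core and cap lists at week 8. Its 7 measured genes were all below week 0 at every later week, with a median of -0.64 at week 8 and 1 fallen gene, PSMB2, at -1.02. That count, 1 of 7, was near the 15.4% of all named genes that had fallen. PSMB2, a structural beta subunit, had 11.89, 11.61, 11.40, 10.86 and 10.87 at weeks 0, 2, 4, 6 and 8, and was at -0.98 without background correction. The structural subunits PSMB3 (-0.71), PSMB1 (-0.64) and PSMB4 (-0.57) stayed under 2-fold. Among the catalytic subunits, PSMB6, of the caspase-like site, had 12.94, 12.53, 12.56, 12.37 and 12.24, a difference of -0.70 at week 8. PSMB7, of the trypsin-like site, had 11.95, 11.79, 11.75, 11.38 and 11.63, a difference of -0.33. PSMB5, of the chymotrypsin-like site and the target of bortezomib, had 12.02, 11.96, 11.28, 11.46 and 11.70, a difference of -0.32. PSMB5 was lowest at week 4 and PSMB7 at week 6, and neither passed 2-fold at any week.

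Their counterparts in the immunoproteasome, which are induced by interferon and lie outside the set, are given beside them. PSMB10 had 10.73, 8.91, 9.41, 9.52 and 10.44 at weeks 0, 2, 4, 6 and 8, so it fell 3.53-fold by week 2 and was within 1.23-fold of week 0 at week 8. PSMB8 had 7.66 at week 0, was below background at weeks 2 and 4, and had 6.16 at week 6 and 7.14 at week 8. It was at least 4.10-fold lower at week 2 and differed by -0.52 at week 8. PSMB9 was below background on all 5 arrays. Both measured genes thus fell by week 2 and were under 2-fold from week 0 at week 8, where their differences of -0.52 (PSMB8) and -0.29 (PSMB10) overlapped those of the constitutive PSMB5, PSMB7 and PSMB6, at -0.32, -0.33 and -0.70. No test between the courses was possible with 1 array per week.

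**Figure D3:**
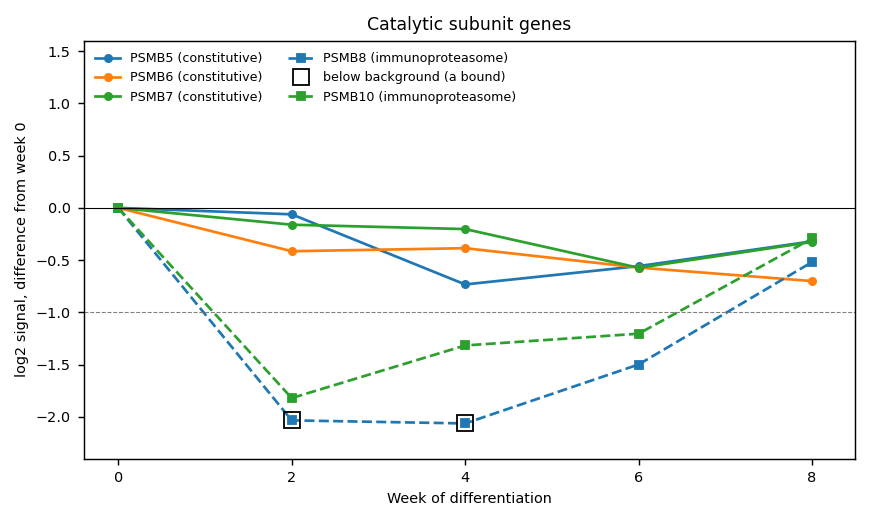
Log2 signal as the difference from week 0 (vertical axis) by week for the constitutive catalytic genes PSMB5, PSMB6 and PSMB7 (solid lines) and the immunoproteasome genes PSMB8 and PSMB10 (dashed lines). PSMB8 was below background at weeks 2 and 4, where its value of about -2 is a bound. PSMB8 and PSMB10 lie below -1 at weeks 2, 4 and 6, and the constitutive genes stay above -1.

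The ATPase ring of the cap, which unfolds the substrate, was lower by a median of -0.82 at week 8. Of its 5 measured genes 2 had fallen, against 15.4% of all named genes. PSMC4 had 8.34, 7.67, 7.36, 6.91 and 6.50 at weeks 0, 2, 4, 6 and 8, lower at every harvest, and ended 3.59-fold below week 0. Both of its other probes were below background at weeks 6 and 8, and its range over the processing alternatives, from -1.99 to -1.01, was the widest of the set. PSMC3 had 11.08, 10.62, 10.78, 10.11 and 10.0001, a difference of -1.08. PSMC6 (-0.82) and PSMC2 (-0.68) stayed under 2-fold, although a further probe of PSMC6 differed by -1.22. PSMC1, with -0.39, changed least of the ring.

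The other cap subunits, the scaffold and ubiquitin receptors of the base and the lid with its deubiquitinase, showed the largest decrease of the roles. Their median was -1.21 at week 8 and 5 of 9 measured genes had fallen, against 15.4% of all named genes. PSMD14, the deubiquitinase that removes ubiquitin chains at the cap, had 11.43, 10.61, 10.84, 10.40 and 10.05 at weeks 0, 2, 4, 6 and 8, a 2.61-fold decrease. The lid genes PSMD3, PSMD11 and PSMD12 fell earlier than the rest with the main processing. PSMD3 had 8.81, 7.38, 7.59, 7.02 and 7.49, with -1.43 already at week 2 and -1.31 at week 8. PSMD11 had 8.09, 6.72, 7.04, 6.60 and 6.88, with -1.37 at week 2 and -1.21 at week 8. PSMD12 had 10.26, 9.23, 8.68, 8.41 and 8.83, with -1.03 at week 2 and -1.43 at week 8. All 3 were lowest at week 6 and a little higher at week 8, while PSMD14 was lowest at week 8. PSMD3 and PSMD11 did not pass 2-fold at week 8 without background correction (-0.95 and -0.75) or in the authors' processed values (-0.90 and -0.68). At week 2 only 2 of the 38 members had fallen under either of these settings, so not all 3 of these lid genes had.

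In the base, PSMD1, a large scaffold subunit, had 10.49, 9.84, 9.74, 9.21 and 9.26 at weeks 0, 2, 4, 6 and 8, a difference of -1.22. Its partner PSMD2 (-0.84), the ubiquitin receptor PSMD4 (-0.52) and the lid subunits PSMD6 (-0.74) and PSMD8 (-0.39) differed by less than 2-fold, although a further probe of PSMD6 differed by -1.10.

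Among the 7 assembly chaperones, PSMG1 and PSMG4 had fallen at week 8 and none had risen, against 15.4% and 16.8% of all named genes. PSMG1, PSMG2, PSMG3 and PSMG4 help to form the alpha ring of the 20S core, whereas PSMD5, PSMD9 and PSMD10 guide assembly of the cap's ATPase base. PSMG4 had 9.60, 7.72, 8.02, 7.78 and 7.60 at weeks 0, 2, 4, 6 and 8, so nearly all of its 4.00-fold decrease was present by week 2. PSMG1 had 11.02, 10.60, 9.99, 9.71 and 9.77, with -0.42 at week 2 and -1.25 at week 8. Its second probe differed by -0.87 at week 2 and -1.74 at week 8, so how early PSMG1 decreased depended on the probe. PSMG3 had 8.04, 6.40, 6.92, 7.0 and 7.44, with -1.63 at week 2 and -0.60 at week 8. PSMG3 thus moved back toward its week 0 level while PSMG4 did not, and PSMG2, the partner of PSMG1, differed by -0.40 at week 8.

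Of the base chaperones, PSMD5 and PSMD9 rose for a time. PSMD5 had 5.76, 7.27, 6.03, 5.58 and 6.00 at weeks 0, 2, 4, 6 and 8, so it rose 2.85-fold at week 2 alone, from a level close to the detection limit of 5.67 on the week 0 array. PSMD9 had 6.12, 6.50, 7.25, 6.94 and 6.61, and had risen at week 4, by 1.13. At week 8 their differences were 0.23 and 0.50, under 2-fold. PSMD10, also known as gankyrin, differed by at most 0.40 at any week. The increases of PSMD5 and PSMD9 did not pass 2-fold without background correction or in the authors' processed values. The 3 probes of PSMD10 differed at week 8 by 0.16, 0.08 and -0.29.

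The activators moved in different directions. PSME3, which forms the nuclear activator PA28 gamma, had 9.78, 8.60, 8.95, 8.40 and 8.13 at weeks 0, 2, 4, 6 and 8, a 3.13-fold decrease, and its second probe differed by -1.63. PSME4, the PA200 activator, had 11.002, 10.58, 10.11, 10.24 and 10.09, a difference of -0.92. PSME1 and PSME2 together form the cytoplasmic, interferon-inducible activator PA28 alpha-beta. PSME1 had 10.66, 10.65, 10.66, 11.17 and 11.44, flat up to week 4 and 1.73-fold higher at week 8, under 2-fold. PSME2 had 10.09, 9.94, 9.35, 9.34 and 9.52, a difference of -0.57 at week 8. The partners were thus on opposite sides of week 0 at weeks 6 and 8, and PSME1 was the only measured member with its highest value at week 8.

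**Figure D4:**
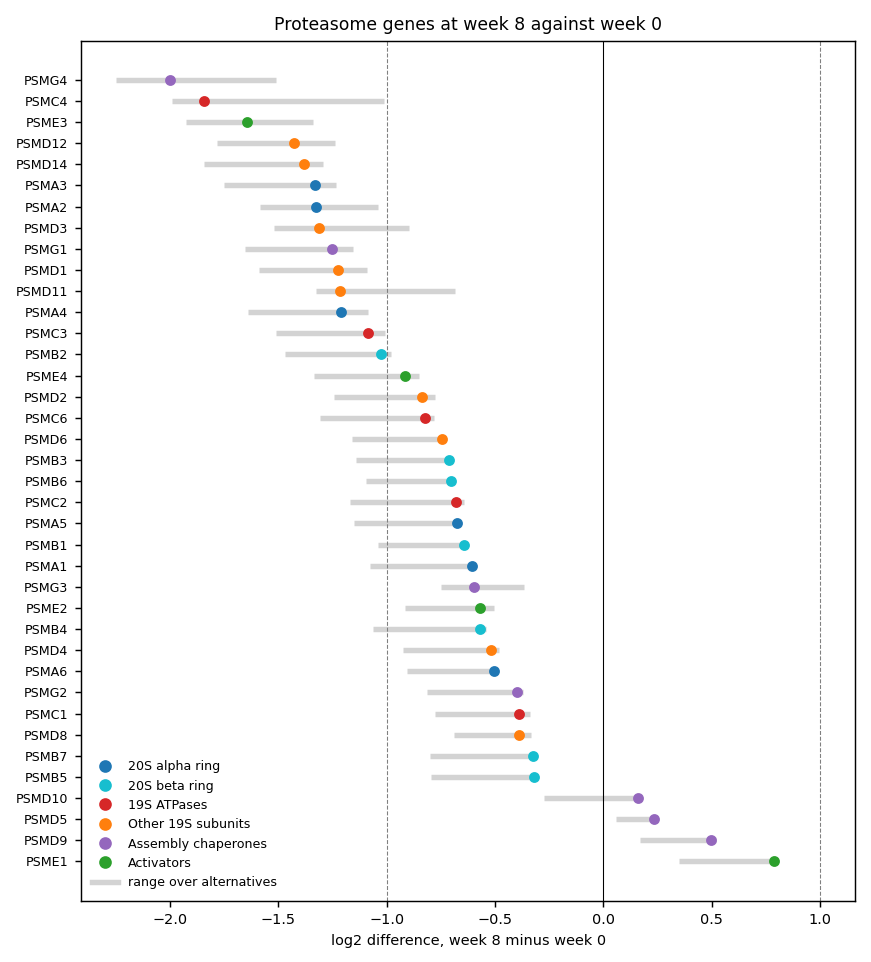
Log2 difference, week 8 minus week 0 (horizontal axis), of the 38 proteasome genes sorted from the lowest value (top), coloured by role. Grey bars span the 7 processing alternatives and dashed lines mark a 2-fold difference. The genes run from PSMG4 at -2.00 to PSME1 at 0.79.

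Genes that work with the proteasome but carry other symbols were lower too at week 8, for the most part. In a list of 12 partners, 11 were measured, with a median of -0.75 at week 8 against -0.05 for all named genes. Of the partners' differences 10 were below 0, against 6463 of 12346 over all named genes. Of the 11, 2 had fallen and none had risen, against 15.4% and 16.8% of all named genes. The count of fallen partners was thus near the share of all genes. The fallen genes were ADRM1, the ubiquitin receptor of the cap (-1.19), and UCHL5, the deubiquitinase that ADRM1 recruits (-1.01). POMP, the chaperone that joins the core's inner and outer rings into a particle, differed by -0.98, and USP14, another deubiquitinase of the cap, by -0.72. The cap subunit gene SEM1 differed by -0.31. PAAF1, which binds the cap's ATPases, rose by 1.13 at week 2 and differed by -0.02 at week 8. ECPAS, a scaffold that binds the assembled proteasome, fell at week 4 alone, by 1.03 on the log2 scale, and PSMF1 was below background on all 5 arrays. Of 8 measured genes that control proteasome gene expression, DDI2 alone rose at week 8, by at least 1.81, and NFE2L2 differed by 0.89 and NFE2L1, the factor that raises proteasome genes when activity is short, by 0.23. DDI2 encodes the protease that activates NFE2L1, and its probe was below background at week 0.

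Lists for the ribosome and the respiratory chain are set beside these values. At week 8 the median was 0.06 for 73 measured ribosomal protein genes, of which 8 had fallen and 2 risen. It was -0.07 for 67 respiratory chain genes, of which 2 had fallen and 2 risen, and -0.71 for the 38 proteasome genes. Over all named genes 15.4% had fallen and 16.8% had risen. With scaling to the 75th percentile the medians were -0.17, -0.49 and -1.16 in the same order, or 0.04, -0.28 and -0.95 relative to all genes. With that scaling 5 respiratory chain genes had fallen, where 20.5% of all named genes had, and 1 had risen. The ribosomal and respiratory lists were drawn by symbol after the other values were known, and the differences between lists were not tested.

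**Figure D5:**
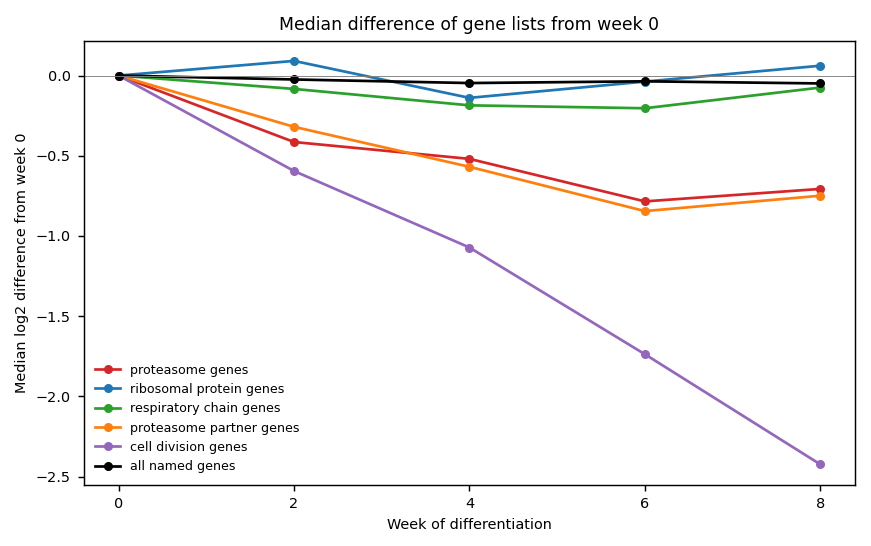
Median log2 difference from week 0 (vertical axis) by week of differentiation for the proteasome genes, their partners, ribosomal protein genes, respiratory chain genes, cell division genes and all named genes measured. At week 8 the medians are -0.71, -0.75, 0.06, -0.07, -2.42 and -0.05.

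Several probes of a gene gave a measure of technical agreement. For 11 genes more than 1 probe was above background at weeks 0 and 8. The probes moved in the same direction for 10 of the 11, PSMD10 being the exception, and their differences at week 8 lay apart by a median of 0.25 and at most 0.49 on the log2 scale. PSMA4, PSMC6 and PSMD6 had 1 probe past 2-fold and another short of it at week 8. Agreement was counted at week 8 alone, and at week 4 it was less close for some genes. There the probes of PSMC6 differed from week 0 by -0.41 and -1.57 and those of PSMA4 by -0.27 and -0.99, while those of PSME3 differed by -0.82 and -0.83. Further probes of PSMA1 (-1.09), PSMA3 (-1.29) and PSMC6 passed 2-fold at week 4 where the probes used did not, so counts at week 4 depended on the probe. Probes of 1 gene share their RNA and array and are not replicates. RefSeq lists 52 pseudogenes of these families, 13 of them copies of PSMC1, and whether probes also bind their transcripts was not checked.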

How the data were processed

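Total RNA was labelled as biotin cRNA and hybridised to single-colour Illumina arrays, all 5 on 1 chip, per the labels. The deposited intensity values are mean bead signals on a linear scale, not background-subtracted or normalized, per the file headers and values. The deposited detection score is a fraction that is highest for bright probes, so its complement was taken as the detection p-value. A table of the authors' processed intensity, with medians of 133.1 to 133.2, served as an alternative, and the steps behind it are not given in the sources used here.

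Bead signals were corrected and quantile normalized with neqc of limma 3.58.1 in R 4.3.3 (offset 16) and converted to log2. A probe counted as above background at a detection p-value under 0.01, with 16993 to 18358 such probes per array. A value below background was raised to at least the lowest one above it on that array, so its fold is a bound. Symbols came from the platform annotation, updated through Entrez identifiers for 30071 of 30110 probes with 1 symbol. Of the rest, 8 probes had several symbols and 17199 are unnamed here. Each gene was represented by its brightest probe.

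With 1 array per week no test was run. Simulated data were all made from the week 0 array, with known changes put into a simulated week 8. At least 48 of 50 probes of each fold size passed 2-fold in the right direction, and 11 of 18629 unchanged probes passed it. Noise was set at an SD of 0.1 on the log2 scale and not estimated, so these shares are no error rates of the real arrays. Genes named with all 5 values were the 3 largest changes each way at week 8, every member past 2-fold at any week, the catalytic subunits and PSMD14, PSMG1 and the PSME genes. Members and lists were chosen with earlier results of these data known. Alternatives tried were leaving out the background correction, bringing arrays to the same 75th percentile, an offset of 50, a detection limit of 0.05, genes detected on every array alone, averaging the probes per gene, and the authors' values.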

Additional observations from a re-analysis of the deposited data

How the results depend on the processing

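Medians of the proteasome genes kept their direction in every comparison under all 7 alternatives and moved by less than 1.5-fold. The looser detection limit and the restriction to genes detected on every array could not change a member value. All 38 measured members were already above background on all 5 arrays, so only the other alternatives test the members. At week 8 against week 0 the median ranged from -1.16 to -0.69. No member that had fallen at week 8 changed sign, and of the others PSMD10 turned negative with scaling to the 75th percentile (-0.27) and on the mean of its probes (-0.02). Counts of genes past 2-fold depended more on the processing. With scaling to the 75th percentile, 17, 31 and 25 members had fallen at weeks 4, 6 and 8. Without background correction 2, 2 and 7 members had fallen at weeks 2, 4 and 6, against 4.1%, 5.09% and 6.91% of all genes (5.26%, 5.26% and 18.4% of members), 0 had risen at week 2 and 0 at week 4, and 0 fell from week 2 to week 4. With the authors' values 2 and 3 had fallen (5.26% and 7.89% of members, against 3.9% and 4.98% of all genes) and 0 and 0 had risen at weeks 2 and 4, and 0 fell from week 2 to week 4. With an offset of 50, 0 had risen at week 4 and 0 fell from week 2 to week 4. The cause was not tested. Another 131 recomputed counts and medians were taken as unchanged. They include all those of both settings that could not change the members, which are no evidence of stability. For a count, unchanged meant within 1.5 times of the reported value. For a median it meant a shift of less than 1.5-fold in signal, which can be large beside a median near 0. No paired analysis was possible because each week had 1 array, and for the same reason no array could be left out within a week. Signals near background, as for PSMD5, PSMD9, PSMG3, PSMC4 and PSMD11, limit what their differences can show.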

Other observations

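Genes that supply ubiquitin and carry tagged proteins to the proteasome were also examined. Of 11 genes in that list, 7 had a named probe, and none of the 7 differed by 2-fold at any week from week 0, with medians of 0.11, 0.23, 0.17 and 0.01 at weeks 2, 4, 6 and 8. Over all named genes, 15.4% had fallen and 16.8% had risen at week 8. UBA1, which activates ubiquitin, differed by 0.82 at week 4 and -0.29 at week 8. UBB, a polyubiquitin gene, differed by -0.12 at week 8, and the shuttle factor genes RAD23B, UBQLN1, UBQLN2 and UBQLN4 by 0.17, 0.01, 0.48 and 0.09. VCP, the segregase that extracts tagged proteins, differed by -0.61, -0.90 and -0.57 at weeks 4, 6 and 8. No difference between this list and the proteasome genes was tested.

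Of the 4 genes that share the symbol stem without encoding a subunit, PSMD6-AS2 and PSMG3-AS1 were below background on all 5 arrays. PSMC3IP, a recombination factor, differed by -0.97 at week 8 against week 0, and PSME3IP1, which binds PA28 gamma, by 0.25.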
